A study of Mus musculus with 3 samples.

Results

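The 10 genes of cytokine signalling described here were followed across the immune cells of mouse melanoma grafts at 3 ages: the ligand gene Il15 and the receptor chain genes Il15ra, Il2ra, Il2rb, Il2rg, Il4ra, Il21r, Il18r1, Il18rap and Il12rb2. They were chosen by symbol from the gene list of the deposited matrices, all 10 were found among 55401 listed genes, and none of them was used to group the cells. YUMM1.7, a transplantable mouse melanoma line, was grown from 500000 cells injected under the skin of mice aged 4, 12 or 20 months, with 7 mice of each age and no other treatment or genetic change given in the labels. Tumours were taken after 18 days and live cells stained for CD45.2, a form of the leukocyte surface protein CD45, were sorted, although the labels give the cell type as melanoma. There was 1 PIP-seq 3′ library per age, in which particles carrying barcodes share droplets with cells, so no difference between ages has a replicate check and no p-value is given. The labels do not say whether the 7 mice were pooled, and age cannot be told apart from the library that carries it.

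IL-2, IL-4, IL-7, IL-9, IL-15 and IL-21 share a signalling chain, the common gamma chain encoded by Il2rg, which works through the kinase Jak3. IL-2 and IL-15 also share the beta chain encoded by Il2rb, and each has a private alpha chain, Il2ra (CD25) and Il15ra. IL-15 is mostly held on the alpha chain of monocytes, macrophages and dendritic cells and shown by them to neighbouring NK and CD8 T cells, whose survival it maintains. Il18r1 binds IL-18 and Il18rap is the second chain that signals with it, while Il12rb2 is the signalling chain of the IL-12 receptor, and both cytokines drive interferon-gamma in NK and T cells.

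Levels are in CPM: the gene's counts summed over a cell class of a library, divided by all counts of that class and scaled to a common total. Intervals in brackets are 95% intervals, exact Poisson for levels and exact conditional binomial for ratios, and cover counting error only. In the order of age, 14393, 14653 and 14684 cells were deposited, and 13318, 13556 and 13581 of them entered 17 cell classes. Immune cells kept numbered 13473, 13751 and 13754, so some lay outside the 17 classes. Statements over the 17 classes leave those cells out. Median counts per cell ran from 4859 to 9408 over the 7 broad classes and 3 libraries. Classes are named "-like" from marker lists. Of the 17, 3 are clusters that met no name and are called by their leading genes. These are a T cluster led by Ccl1 and Penk and 2 monocyte/macrophage clusters. Of the latter, one is led by Tgm2 and AA467197 and one by Ly6i and H2-DMb1. The regulatory T-like cells held Foxp3 at 237, 194 and 165 CPM, against 4.71, 8.11 and 7.01 CPM in classical monocyte-like cells. The class named Ly49-bearing T-like also carried Trdc, a gamma-delta T cell receptor gene, at 319, 182 and 162 CPM. Pairs of libraries shared 2 to 4 cell barcodes.

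Of these genes, 3 pairs are neighbours on a chromosome with no coding gene between them. On GRCm38, Il2ra (chr2:11642807-11693193, plus strand) and Il15ra (chr2:11705290-11734317, plus strand) are 12096 bp apart. Il18r1 (chr1:40465552-40500854, plus strand) and Il18rap (chr1:40515362-40551705, plus strand) are 14507 bp apart. Il4ra (chr7:125552120-125579474, plus strand) and Il21r (chr7:125603429-125633570, plus strand) are 23954 bp apart. The others stand alone: Il2rb at chr15:78479256-78495271, Il2rg at chrX:101264378-101268255, Il15 at chr8:82331632-82403222 and Il12rb2 at chr6:67291318-67376188, all on the minus strand. Il2rg overlaps the annotated gene Gm20489 on the same strand, so counts of that pair may be shared, and Il2ra overlaps Gm37881 likewise. Il4ra and Il12rb2 overlap Gm44876 and Serbp1 on the opposite strand, and use of strand in counting is not given in the sources used here.

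The promoters of the 4 genes in the pairs whose levels are followed most closely here are shown so that neighbours can be compared. Il18r1 and Il18rap were both high in most T and NK classes, with a Pearson r of 0.82 between their log2 levels over the 51 sums of 17 classes in 3 libraries. Il2ra and Il15ra were both high in mature dendritic-like cells but only Il2ra was in regulatory T-like cells, and their r was 0.26. The r of Il4ra and Il21r was 0.39. Each sequence is the 250 bases before a start site on the plus strand of GRCm38.p6, from RefSeq, printed 5′ to 3′.
Il2ra: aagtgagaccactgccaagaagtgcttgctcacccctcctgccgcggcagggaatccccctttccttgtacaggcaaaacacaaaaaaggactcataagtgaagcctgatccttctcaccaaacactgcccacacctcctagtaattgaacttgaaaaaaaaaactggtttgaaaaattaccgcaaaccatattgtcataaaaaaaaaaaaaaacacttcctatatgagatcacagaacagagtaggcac
Il15ra: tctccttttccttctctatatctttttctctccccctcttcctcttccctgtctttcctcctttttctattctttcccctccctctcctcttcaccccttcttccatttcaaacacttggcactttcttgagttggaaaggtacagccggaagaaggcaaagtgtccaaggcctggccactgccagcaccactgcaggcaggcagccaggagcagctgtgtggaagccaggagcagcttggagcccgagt
Il18r1: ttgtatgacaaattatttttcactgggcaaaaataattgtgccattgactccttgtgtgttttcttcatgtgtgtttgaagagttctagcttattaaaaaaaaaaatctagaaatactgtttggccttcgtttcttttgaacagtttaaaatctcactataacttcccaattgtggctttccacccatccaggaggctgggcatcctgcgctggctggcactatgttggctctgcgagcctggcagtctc
Il18rap: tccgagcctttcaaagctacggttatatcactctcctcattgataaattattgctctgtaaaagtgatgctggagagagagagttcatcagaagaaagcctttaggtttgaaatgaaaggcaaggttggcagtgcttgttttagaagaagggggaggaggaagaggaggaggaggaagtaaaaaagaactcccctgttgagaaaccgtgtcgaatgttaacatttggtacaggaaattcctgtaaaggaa
These windows are chr2:11642542-11642791, chr2:11705043-11705292, chr1:40465302-40465551 and chr1:40515112-40515361, and for Il15ra and Il18r1 they belong to the first listed start site.

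Of the 10 genes, 8 had a promoter in the table, and Il2rb and Il15 had none.

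**Figure D1:**
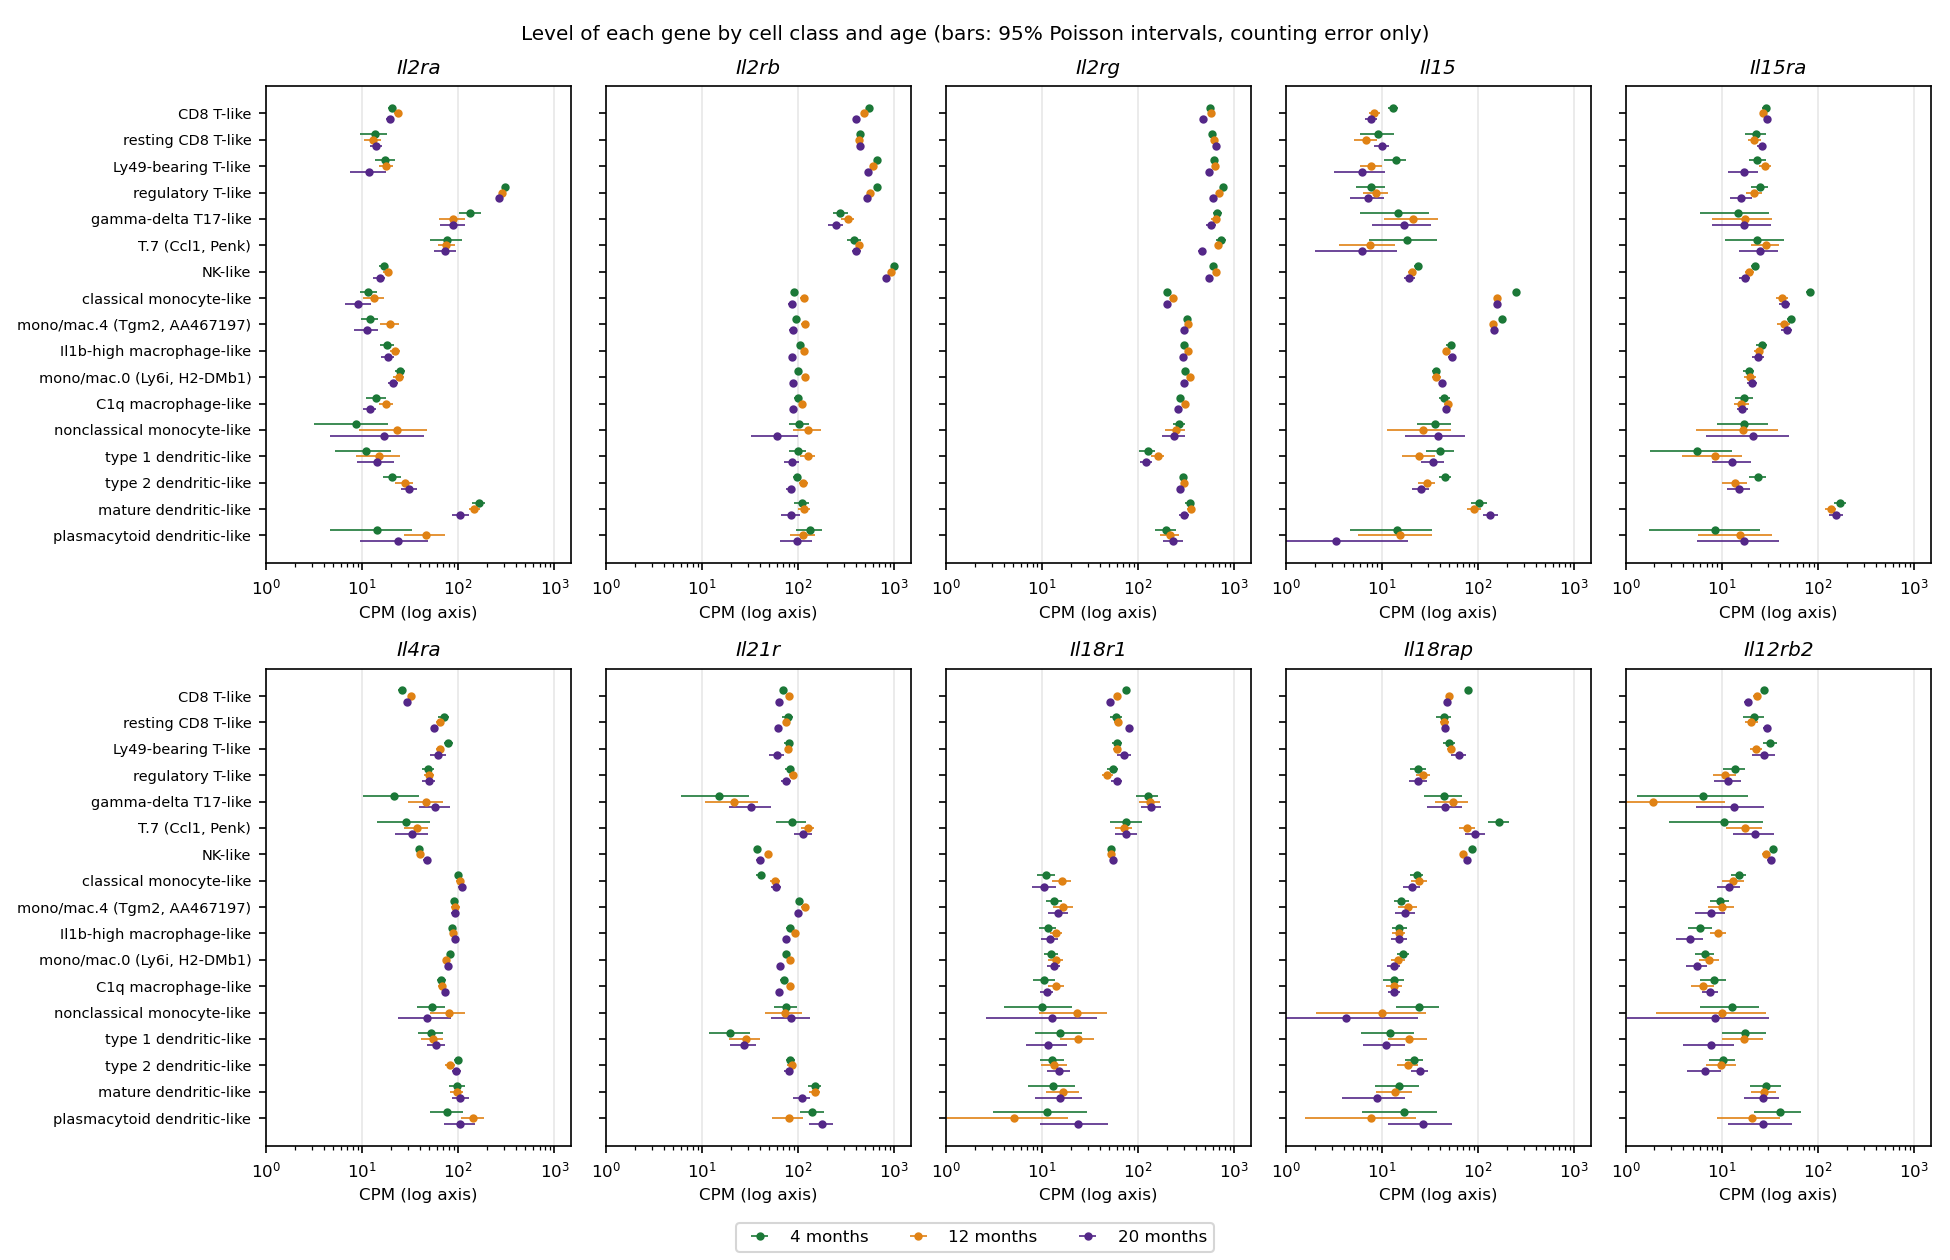
Levels of the 10 genes in 17 cell classes, in CPM on a log axis, with 1 point per library (age) and bars for 95% Poisson intervals. Il2rb, Il18r1 and Il18rap sit to the right in the T and NK classes at the top. Il15 and Il4ra do so in most of the monocyte, macrophage and dendritic classes below. Il2ra stands out in regulatory T-like and mature dendritic-like cells.

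Il15, the ligand gene, was highest in classical monocyte-like cells. Classical monocyte-like cells held 249.8 (239 to 261), 158 (147 to 170.3) and 156 (145 to 168) CPM at 4, 12 and 20 months, from 2014, 742 and 736 counts. The 4-month library was the highest and its interval did not meet those of the older ages, which overlapped each other. The Tgm2-led cluster, whose other leading genes include Cxcl10, Rsad2 and Il18, came next with 176, 143 and 146 CPM, and its range over libraries met that of classical monocyte-like cells. Mature dendritic-like cells, the migratory state marked by Ccr7 and Fscn1, followed with 102, 90.9 and 134 CPM and had their highest value at 20 months, where the interval overlapped that of 4 months.

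The macrophage classes had lower and steadier Il15. Il1b-high macrophage-like cells held 51.8, 46.6 and 53.3 CPM, C1q macrophage-like cells 44.8, 48.7 and 47 CPM and the Ly6i-led cluster 36.7, 37 and 42.6 CPM. In none of these 3 did a library lie 1.5-fold from another. Type 2 dendritic-like cells held 45.9, 29.4 and 25.3 CPM, which was 1.56-fold lower at 12 months and 1.82-fold lower at 20 months than at 4 months, with log2 ratios of -0.64 (-1.01 to -0.28) and -0.86 (-1.23 to -0.50). Type 1 dendritic-like cells held 40.7, 24.6 and 34.2 CPM with overlapping intervals. Nonclassical monocyte-like cells, unlike the classical ones, held only 26.5 to 38.3 CPM over the libraries.

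Lymphoid classes held little Il15: 23.9, 20.7 and 19.4 CPM in NK-like cells, 13.2, 8.39 and 7.78 CPM in CD8 T-like cells and 7.75, 8.67 and 7.19 CPM in regulatory T-like cells. Summed over T and NK classes, Il15 was at 15.4%, 17.1% and 15.9% of its monocyte/macrophage-like level. A list of 10 monocyte/macrophage markers, all above 0, was at 6.97%, 7.37% and 7.79% in the same lymphoid cells, and the part of monocyte RNA in lymphoid Il15 was not tested. One NK sub-cluster stood apart with 55.6, 61.3 and 59.96 CPM, where the other large NK sub-clusters held 12.6 to 17.4 CPM. Its genes highest over other NK-like cells were Cxcl10, Ifit1 and Ifit3, which are interferon-induced genes.

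Il15ra, the alpha chain that presents IL-15, was highest in mature dendritic-like cells at 170.4 (147 to 197), 136 (119 to 154) and 154 (129.8 to 182) CPM. The 3 intervals overlapped there. In 33.0% to 34.8% of these cells an Il15ra count was found after every cell was thinned to 3000 counts, against 58.96% to 63.0% unthinned, and 5.00% to 6.42% of NK-like cells had one after thinning. Classical monocyte-like cells were next at 82 (75.9 to 88.5), 42.7 (37 to 49.1) and 45.3 (39.4 to 51.8) CPM and the Tgm2-led cluster followed with 53, 44.1 and 47.2 CPM. CD8 T-like cells held 28.8, 27 and 29.5 CPM and nonclassical monocyte-like cells 16.6 to 21.3 CPM. The lowest values were in plasmacytoid and type 1 dendritic-like cells at 5.5 to 16.9 CPM.

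Both genes of the IL-15 pair were lower in classical monocyte-like cells of the older mice. In classical monocyte-like cells Il15 had log2 ratios to 4 months of -0.66 (-0.78 to -0.53) and -0.68 (-0.80 to -0.55), in the order of age. Il15ra had ratios of -0.94 (-1.18 to -0.71) and -0.86 (-1.09 to -0.63). In the Tgm2-led cluster the Il15 ratios were -0.30 and -0.27 and the Il15ra ratios -0.27 and -0.17, all within 1.5-fold. Type 2 dendritic-like cells also had lower Il15ra, at 23.8, 13.8 and 15 CPM, with ratios of -0.79 (-1.32 to -0.27) and -0.66 (-1.16 to -0.17). Mature dendritic-like cells, the class with most Il15ra, stayed within 1.5-fold at both ages for both genes.

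The 2 genes were also found together in single cells. At 4 months, 12.4% of classical monocyte-like cells thinned to 3000 counts had a count of both, where the product of the separate shares was 8.54%, and over the 3 libraries the observed share was 1.18 to 1.47 times the product. The interval of the observed share lay above the product in 2 of 3 libraries after thinning and in all 3 unthinned. In the Tgm2-led cluster the factor was 1.06 to 1.24, and in mature dendritic-like cells 1.03 to 1.13, and there no thinned interval lay above the product.

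**Figure D2:**
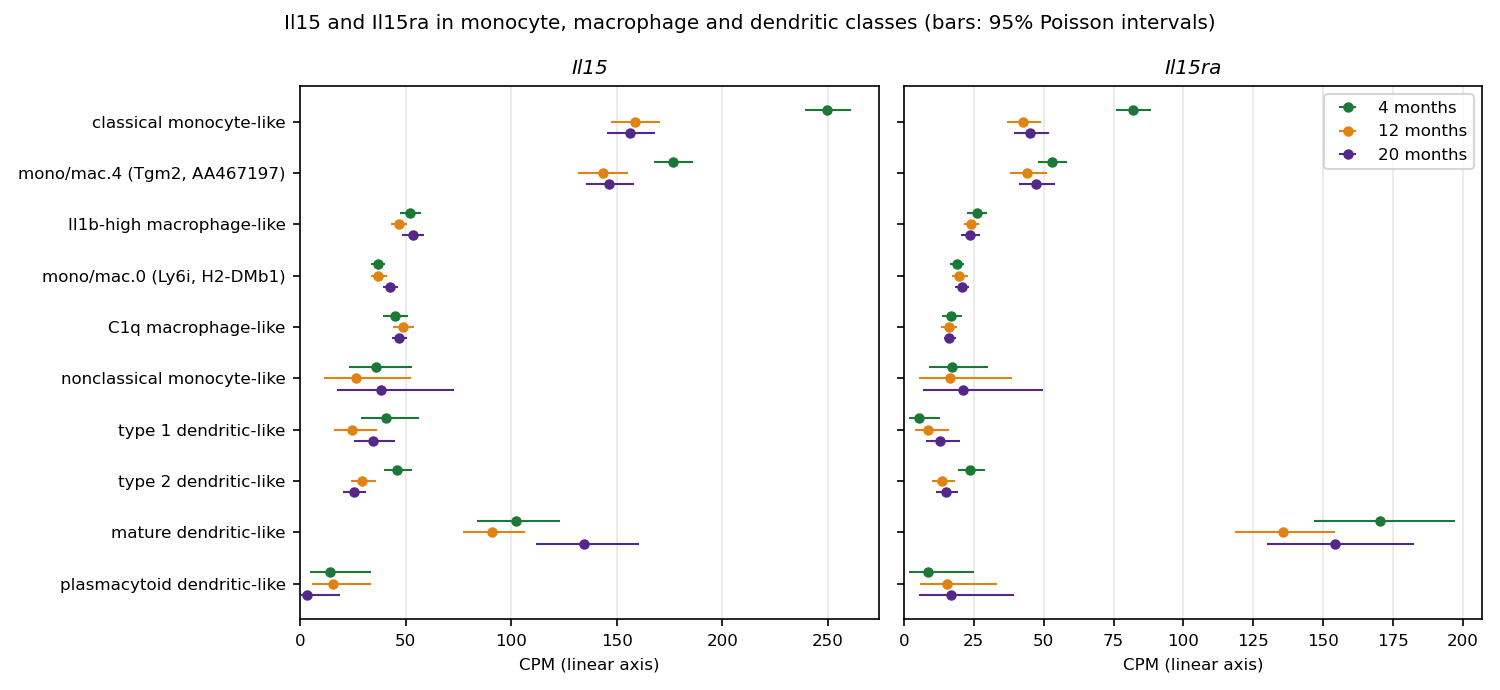
Il15 and Il15ra levels in CPM on a linear axis in 10 monocyte, macrophage and dendritic classes, 1 point per library with 95% Poisson intervals. In classical monocyte-like cells the 4-month point lies at 249.8 CPM for Il15 and at 82 CPM for Il15ra, to the right of both older libraries, and the macrophage classes overlap between ages.

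Il2rg, the shared gamma chain, was present in every class and higher in lymphoid than in myeloid ones. Regulatory T-like cells held 760.1, 702 and 600.3 CPM, and every T and NK class held 462 to 760.1 CPM. Their ranges over libraries overlapped from one neighbour in the order to the next. Monocyte/macrophage-like cells held 283, 315 and 274 CPM, mature dendritic-like cells 344, 352 and 299.9 CPM, classical monocyte-like cells 197, 231 and 199.8 CPM and type 1 dendritic-like cells, the lowest, 125, 161 and 122 CPM. The monocyte/macrophage-like level was 47.4%, 51.4% and 50.7% of the lymphoid one, while 22 T and NK marker genes were at 11.5%, 15.7% and 13.7%.

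Il2rb, the beta chain of the IL-2 and IL-15 receptors, was highest in NK-like cells at 980.4 (966 to 995), 928 (914 to 942) and 813 (797 to 829) CPM. No other class reached that range. Ly49-bearing T-like cells held 658, 599 and 532 CPM, regulatory T-like cells 658, 552 and 515 CPM and CD8 T-like cells 547, 480.3 and 399 CPM, and resting CD8 T-like cells, marked by Ccr7, Lef1 and Dapl1, held 443, 432 and 444 CPM. Gamma-delta T17-like cells, which carry Il17a and Trdc, had the lowest lymphoid values at 274, 326 and 246 CPM. NK-like cells had an Il2rb count in 88.3% to 90.96% after thinning to 3000 counts and in 98.3% to 98.8% before.

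In the 10 monocyte, macrophage and dendritic classes Il2rb was nearly flat, from 59.6 to 131 CPM. Over all monocyte/macrophage-like cells it was at 13.5%, 18.7% and 16.9% of its lymphoid level, close to the 11.5%, 15.7% and 13.7% of the 22 T and NK markers, and both were highest at 12 months. Cd3e, a T cell receptor subunit gene that these cells should lack, was at 52.3, 102 and 86.9 CPM there, and Ncr1, an NK receptor gene, at 43.9, 39.4 and 22.6 CPM. These values lie near those of genes that the cells should lack, and no Il2rb expression is read from them.

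At 20 months Il2rb was lower than at 4 months in 4 of the 5 lymphoid broad classes with an interval below 0, each within 1.5-fold. The log2 ratio was -0.27 (-0.31 to -0.24) in NK-like cells, -0.35 (-0.44 to -0.27) in regulatory T-like cells and -0.46 (-0.50 to -0.41) in CD8 T-like cells, and 0.00 (-0.09 to 0.09) in resting CD8 T-like cells. Over all 7 broad classes the Il2rb interval lay below 0 in 6. These include monocyte/macrophage-like (97.8 to 87.5 CPM) and dendritic-like cells (99.8 to 84.8 CPM), from whose levels no Il2rb expression is read. Il2rg was lower with an interval below 0 in 6 of all 7 broad classes, down to -0.34 (-0.42 to -0.26) in regulatory T-like cells. In resting CD8 T-like cells its ratio of 0.12 (0.04 to 0.19) lay above 0. The direction in monocyte/macrophage-like cells depended on the setting. With background subtracted Il2rg there was 11.5, 28.6 and 37.5 CPM, past the fold upward at 1.32 and 1.71. Within CD8 T-like cells the largest Il2rb ratio was that of the sub-cluster led by Pdcd1 and Trgc2, with 723, 614 and 467 CPM and a ratio of -0.63 (-0.70 to -0.56) at 20 months. In that sub-cluster Il2rg stood at 469, 477 and 429 CPM.

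Il2ra, the alpha chain that makes the high-affinity IL-2 receptor, was highest in regulatory T-like cells at 308 (291 to 325), 282 (268 to 297) and 264 (248 to 281) CPM. It was next in mature dendritic-like cells at 164 (140.4 to 189.97), 147 (129.6 to 167) and 106 (85.4 to 129) CPM and in gamma-delta T17-like cells at 134, 87.3 and 87.9 CPM, and the ranges of these 2 overlapped. The Ccl1-led T cluster, which also held Csf2 and Ifng among its leading genes and the highest Il2 of any class, held 75.7, 75.3 and 72.9 CPM. Every other class lay at or below 46.1 CPM. After thinning, 47.9% to 54.2% of regulatory T-like cells had an Il2ra count, against 68.6% to 70.7% unthinned, and 1.86% to 4.07% of classical monocyte-like cells had one after thinning.

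Between ages Il2ra differed by 1.5-fold in 2 of these classes. In mature dendritic-like cells it was 1.55-fold lower at 20 months, a log2 ratio of -0.63 (-1.01 to -0.27). In gamma-delta T17-like cells it was lower at both older ages, with ratios of -0.62 (-1.20 to -0.04) and -0.61 (-1.19 to -0.04) on 63, 45 and 46 counts. In regulatory T-like cells the ratios were -0.13 (-0.23 to -0.02) and -0.22 (-0.34 to -0.10), within 1.5-fold. Foxp3 in the same cells went in that order too, from 237 to 194 and 165 CPM. In regulatory T-like cells Il2ra and Il2rb were found together 1.03 to 1.05 times as often as the product of their shares, with no interval above the product.

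Il4ra, the alpha chain of the IL-4 receptor, which also serves IL-13, had its highest values in some dendritic and monocyte classes. It was at 77, 141 and 105 CPM in plasmacytoid dendritic-like cells and 100.1, 104 and 109 CPM in classical monocyte-like cells. Mature dendritic-like cells held 97.4, 96.9 and 106 CPM and type 2 dendritic-like cells 100.1, 82.9 and 95.4 CPM. The Tgm2-led cluster, at 90.7 to 93.6 CPM, and Il1b-high macrophage-like cells, at 86.1 to 93 CPM, followed. The ranges of neighbours in this list overlapped. Type 1 dendritic-like cells, at 51.7 to 59.4 CPM, and nonclassical monocyte-like cells, at 46.9 to 79.6 CPM, were lower. Among lymphoid classes Ly49-bearing T-like cells with 78.9, 64.4 and 61.9 CPM and resting CD8 T-like cells with 70.5, 64.2 and 55.9 CPM were highest, and CD8 T-like cells with 26.1, 32.4 and 29.5 CPM were lowest of all large classes. With the main settings every broad class stayed within 1.5-fold of 4 months. Monocyte/macrophage-like cells had log2 ratios of -0.05 (-0.12 to 0.02) and -0.02 (-0.09 to 0.04). In Ly49-bearing T-like cells the direction depended on the setting. With libraries clustered separately Il4ra there was 33.1, 66 and 60.7 CPM, past the fold upward at 0.995 and 0.87. With background subtracted it passed downward, at -0.72 and -0.70. That setting also gave -0.67 in NK-like cells at 12 months and -0.75 in resting CD8 T-like cells at 20 months.

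Il21r, the private chain of the IL-21 receptor, was spread over lymphoid and myeloid classes. Mature dendritic-like cells held 148, 148 and 109 CPM, plasmacytoid dendritic-like cells 139.8, 79.5 and 175 CPM, the Ccl1-led T cluster 86.1, 126 and 112 CPM and the Tgm2-led cluster 103, 117 and 101 CPM, with ranges that overlapped in that order. CD8 T-like cells held 69.5, 79.8 and 63.8 CPM and regulatory T-like cells 81.5, 89.2 and 75.5 CPM. NK-like cells were lower at 37.5, 48.7 and 40.2 CPM, and gamma-delta T17-like and type 1 dendritic-like cells were lowest at 14.9 to 32.5 CPM. Its ratios at 20 months ran from -0.42 to 0.10 on the log2 scale over the 7 broad classes, with 5 intervals below 0. With background subtracted Il21r passed the fold downward in Ly49-bearing T-like cells at 20 months, at -1.13. In resting CD8 T-like cells it did so at 12 and 20 months, at -0.62 and -0.90.

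Il18r1, the IL-18 binding chain, was highest in gamma-delta T17-like cells at 125 (95.5 to 162), 132 (102 to 167) and 138 (108 to 173) CPM. No other class reached that range. The Ccl1-led T cluster held 75.7, 70.8 and 75.4 CPM, resting CD8 T-like cells 59, 61.1 and 81.1 CPM, Ly49-bearing T-like cells 61, 59.8 and 71.7 CPM, CD8 T-like cells 75.2, 61 and 51.1 CPM, regulatory T-like cells 54.5, 48 and 60.03 CPM and NK-like cells 51.9, 52.3 and 55.4 CPM, and neighbours in this order overlapped. Monocyte/macrophage-like cells held 11.9, 14.6 and 12.3 CPM, which was 19.0%, 25.4% and 20.2% of the lymphoid level beside 11.5%, 15.7% and 13.7% for the T and NK markers.

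Il18rap, the signalling partner, had another order. The Ccl1-led T cluster held 164, 77.6 and 93.9 CPM, NK-like cells 86.9, 70.2 and 77.3 CPM and CD8 T-like cells 78.4, 49.7 and 47.6 CPM, and the 4-month library was the highest in each. Gamma-delta T17-like cells, first for Il18r1, held 44.7, 54.3 and 45.8 CPM and regulatory T-like cells 24, 27 and 23.8 CPM, close to the 20.4 to 24.3 CPM of classical monocyte-like cells. Over the 51 sums of 17 classes in 3 libraries, which share libraries and depth, the log2 levels of both chains had a Pearson r of 0.82, a description with no test. In CD8 T-like cells thinned to 3000 counts both chains were found in 1 cell in 5.95%, 2.96% and 2.74% of cells, where the products of the shares were 4.15%, 2.28% and 1.84%, and each interval lay above its product. The factor was 1.28 to 1.32 in NK-like cells, again above the product in all 3 libraries, and 0.66 to 1.15 in gamma-delta T17-like cells, where it was not.

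In CD8 T-like cells both IL-18 receptor chains were lower at the older ages. Il18rap was 1.58-fold lower at 12 months and 1.65-fold lower at 20 months than at 4 months, with log2 ratios of -0.66 (-0.76 to -0.55) and -0.72 (-0.83 to -0.61) from 1550, 1420 and 1076 counts. Il18r1 had ratios of -0.30 (-0.40 to -0.20) and -0.56 (-0.67 to -0.45), within 1.5-fold, and its interval at 20 months overlapped that of Il18rap. At 20 months Il18r1 passed the fold under 4 alternatives: -0.60 with resolution 1.5, -0.69 with libraries clustered separately, -0.62 with cells weighted equally and -0.71 with background subtracted. Il18rap at 12 months was within the fold with resolution 1.5, at -0.52. The difference between the chains was not tested. At 20 months Il18r1 was lower in only 1 of the 7 broad classes. In resting CD8 T-like cells its ratio was 0.46 (0.23 to 0.70), or 0.63 and past the fold without the 10 highest cells. Il18rap there had a ratio of 0.07 (-0.21 to 0.35). The share of CD8 T-like cells with an Il18rap count after thinning was 20.4%, 13.6% and 12.9%. In the same class the 11 NK markers, all above 0, summed to 1472, 926 and 675 CPM, against 550, 426 and 242 CPM in monocyte/macrophage-like cells. The list includes Gzma, which stood high in the Ifitm1-led CD8 T-like sub-cluster, so the sum is not a measure of NK RNA alone. The part of NK RNA in the Il18rap difference was not tested.

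The CD8 T-like class is made of 4 sub-clusters whose shares differed between libraries. The one led by Pdcd1 and Trgc2, in which Tox and Ccl3 stood highest over the other CD8 T-like cells, made up 28.5%, 18.9% and 32.5%. There Il18rap was 91.5 (84.1 to 99.3), 46.8 (41.4 to 52.7) and 42.8 (38 to 48) CPM and Il18r1 60.1 (54.1 to 66.5), 45.2 (39.9 to 51.1) and 32.7 (28.5 to 37.3) CPM, and the 4-month library was highest for both, with no overlap for Il18rap. Their log2 ratios at 20 months were -1.10 (-1.31 to -0.89) and -0.88 (-1.12 to -0.63). The sub-cluster led by Ifitm1 and 1500009L16Rik, with high Gzma and S1pr1, made up 17.99%, 9.11% and 4.71% and held more of both chains, 147, 115 and 153 CPM of Il18r1 and 103, 73.2 and 95.7 CPM of Il18rap. In the sub-cluster led by Cxcr6 and Cd8b1 Il18rap was 68.4, 50.1 and 47.3 CPM, and in the one led by the histone genes Hist1h2ao and Hist1h2ap, a mark of cell division, 58.9, 45.9 and 46.6 CPM. With the 4-month shares of the sub-clusters used at every age, the class ratios of Il18rap were -0.61 and -0.58, beside -0.66 and -0.72 as summed, and the second then lay just within 1.5-fold. In the Ccl1-led T cluster Il18rap was lower too, by 2.12-fold at 12 months and 1.75-fold at 20 months, on 63, 103 and 76 counts. The 11 NK markers in that cluster, all above 0, summed to 1044, 694 and 584 CPM. As the list includes Gzma, this sum too is not a measure of NK RNA alone. The part of NK RNA in that Il18rap difference was not tested.

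**Figure D3:**
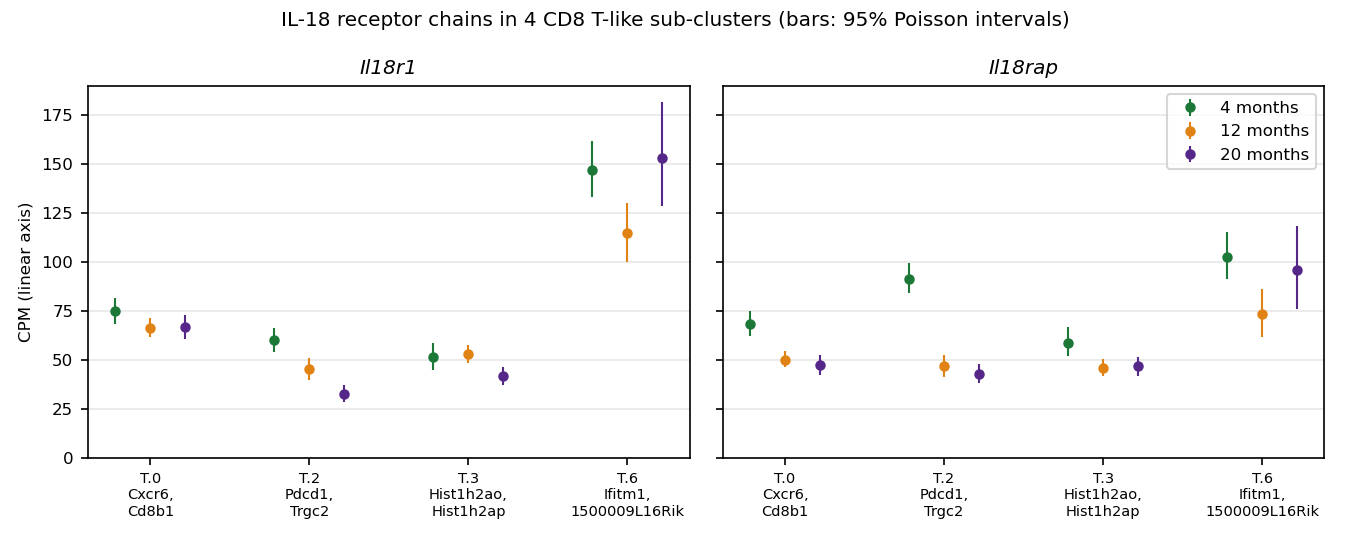
Il18r1 and Il18rap levels in CPM on a linear axis in the 4 CD8 T-like sub-clusters, named by leading genes, 1 point per library with 95% Poisson intervals. In the Pdcd1-led sub-cluster Il18rap at 4 months, 91.5 CPM, lies above both older libraries, and the Ifitm1-led sub-cluster holds the highest Il18r1 at each age.

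Il12rb2 had low levels everywhere. NK-like cells held 34.5, 28.8 and 32.4 CPM, plasmacytoid dendritic-like cells 39.9, 20.5 and 27 CPM, mature dendritic-like cells 29, 27.3 and 26.7 CPM, Ly49-bearing T-like cells 32.1, 22.7 and 27.3 CPM and CD8 T-like cells 27.8, 23.1 and 18.7 CPM. The ranges of neighbours in this order overlapped. In Ly49-bearing T-like cells the direction at 12 months depended on the setting. Il12rb2 there passed 1.5-fold upward with libraries clustered separately (0.92) and downward with background subtracted (-0.72). That last setting also gave -1.15 in regulatory T-like cells at 12 months, from 4.62 to 2.08 CPM. Resting CD8 T-like cells held 21.6, 20.3 and 29.7 CPM, a log2 ratio of 0.46 (0.07 to 0.86) at 20 months. That ratio passed 1.5-fold upward with doublets kept (0.66), resolution 1.5 (0.61) and at least 5000 counts per cell (0.68). It did so too without the 10 highest cells (0.81) and with background subtracted (0.85). In CD8 T-like cells the log2 ratio at 20 months was -0.57 (-0.76 to -0.39), just inside 1.5-fold. It passed the fold, at -0.59 to -0.79, with doublets kept, resolution 1.5, separate clustering, equal weighting and background subtracted. The sub-cluster led by Ifitm1 held the most within that class, 54.8, 50.3 and 34.6 CPM, against 18.7, 13.6 and 11.7 CPM in the Pdcd1-led one. Over all dendritic-like cells the level was 15.9, 16.2 and 10.6 CPM, a ratio of -0.59 (-1.05 to -0.14) at 20 months, while the share of mature cells among them was 17.9%, 26.7% and 14.9%. That ratio was within the fold, from -0.58 to -0.37, in 5 of 9 alternatives.

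Counted over 7 broad classes and 10 genes, 68 of 70 pairs of gene and class had at least 100 counts in the libraries compared at 12 against 4 months. Of these, 5 were at least 1.5-fold lower and 0 at least 1.5-fold higher, or 7.35% in all. Over all genes and the same classes 8.09% of 76967 pairs passed this fold, 5.16% higher and 2.93% lower. At 20 against 4 months 6 of 67 pairs were lower and 0 higher, or 8.96%, against 8.42% of 74816 pairs, 4.97% higher and 3.45% lower. The share of these genes past the fold was thus near that of all genes, and nothing about the group as a whole is read from it. By class, this fold was passed downward by 3.1% and 3.7% of all genes among monocyte/macrophage-like cells and by 2.79% and 3.18% among CD8 T-like ones. At 20 months the 10 genes had a median log2 ratio of -0.35 in CD8 T-like cells, -0.22 in regulatory T-like, -0.15 in NK-like, -0.15 in monocyte/macrophage-like and -0.23 in dendritic-like cells, where all genes had medians of -0.02, -0.04, -0.03, 0.04 and 0.02. In resting CD8 T-like cells it was 0.09, against -0.09 for all genes. In Ly49-bearing T-like cells it was -0.27 over the 8 genes with enough counts, against -0.09 for all genes. The regulatory T-like median was over 9 genes. At 12 months the medians lay nearer to those of all genes: -0.14, -0.13, -0.03, 0.05 and 0.04 in the same 5 classes, where all genes had -0.00074, -0.03, -0.0099, 0.05 and 0.006.

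The pairs past the fold were few in kind. Il15 and Il15ra were lower in monocyte/macrophage-like cells at both older ages, Il15 and Il18rap in CD8 T-like cells at both, Il15 in Ly49-bearing T-like cells at 12 months, and Il15ra in regulatory T-like cells and Il12rb2 in dendritic-like cells at 20 months. Il15 over all monocyte/macrophage-like cells was 108 (105 to 111), 67.5 (64.9 to 70.1) and 68.6 (66.2 to 71.1) CPM, a ratio of -0.68 (-0.75 to -0.61) and -0.65 (-0.72 to -0.59), and Il15ra was 38.6, 25.5 and 25.2 CPM, a ratio of -0.60 (-0.71 to -0.48) and -0.62 (-0.73 to -0.50). The makeup of this class moved with it. Classical monocyte-like cells were 20.2%, 13.6% and 11.8% of the class and the Tgm2-led cluster 21.2%, 11.96% and 11.7%, while C1q macrophage-like cells were 10.2%, 17.3% and 26.4%. With the 4-month makeup used at every age the ratios were -0.37 and -0.32 for Il15 and -0.41 and -0.34 for Il15ra, and none of the 4 passed 1.5-fold. Il15ra was also within the fold at both ages with doublets kept, at -0.58 each, and at 12 months with cells weighted equally, at -0.55.

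Il15 in CD8 T-like cells had ratios of -0.65 (-0.91 to -0.39) and -0.76 (-1.04 to -0.48), at levels of 13.2, 8.39 and 7.78 CPM. The 12-month ratio was within 1.5-fold with libraries clustered separately, at -0.56, and with sub-cluster makeup held, at -0.52. Monocyte/macrophage-like cells of the same libraries held 108, 67.5 and 68.6 CPM, and the monocyte/macrophage markers in CD8 T-like cells summed to 1218, 1158 and 1375 CPM, with all 10 above 0. The part of monocyte RNA in this low level was not tested. Il15ra in regulatory T-like cells was 24.9 (20.4 to 30.1), 21.8 (17.9 to 26.2) and 16 (12.2 to 20.7) CPM, with overlap of neighbouring ages, and a ratio of -0.63 (-1.12 to -0.16) from 106, 113 and 58 counts, which was -0.52 with doublets kept and -0.54 with makeup held, both within the fold. For Il15 in Ly49-bearing T-like cells the counts were 60, 61 and 12 and the ratio at 12 months was -0.84 (-1.38 to -0.30), or -0.52 and within the fold with libraries clustered separately.

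**Figure D4:**
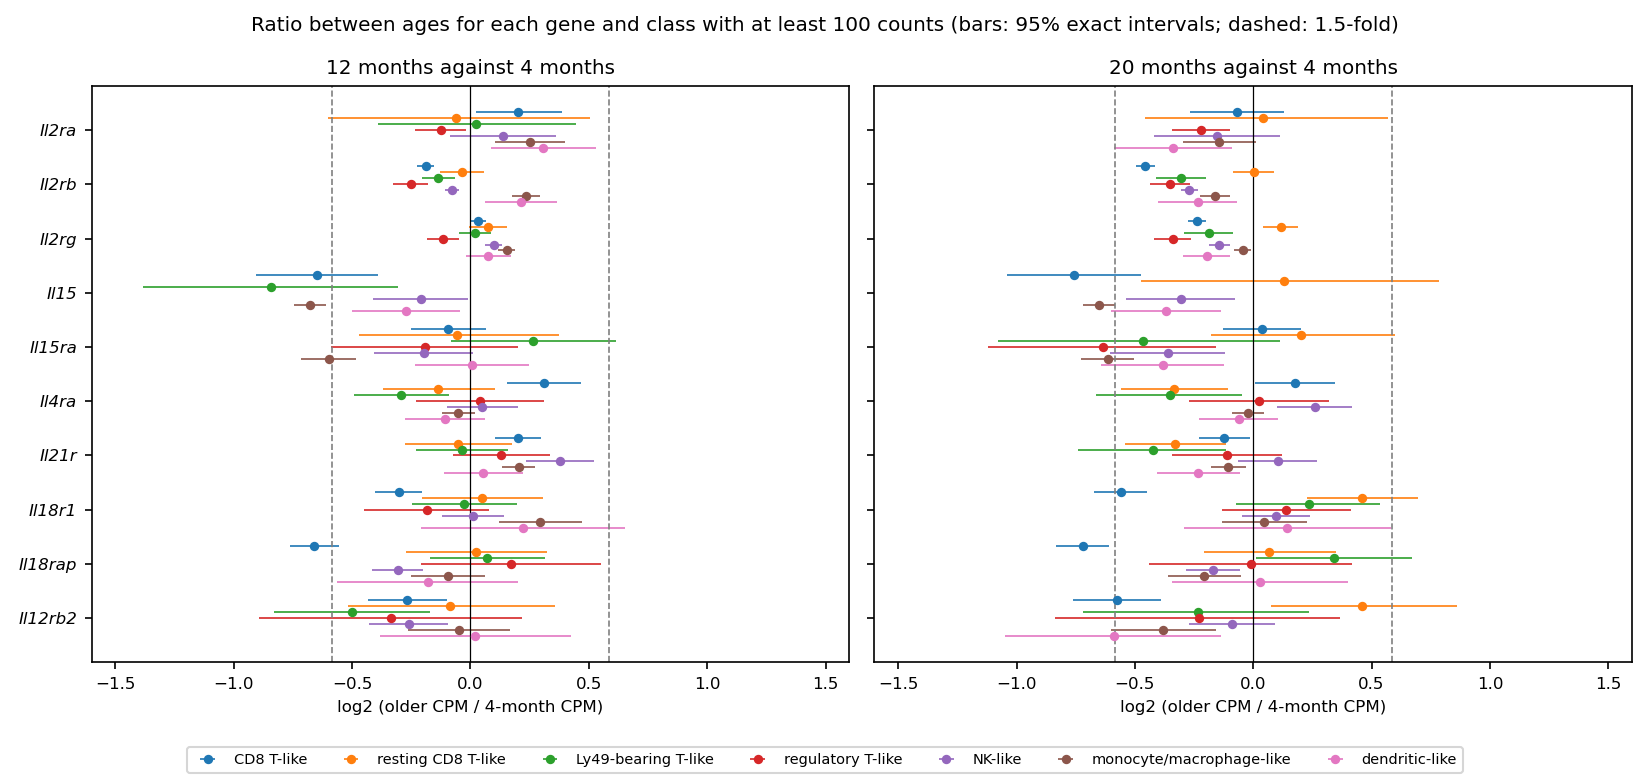
Log2 ratio of older to 4-month CPM for each gene in 7 broad classes with at least 100 counts, 12 months on the left and 20 months on the right, with 95% intervals and dashed lines at 1.5-fold. No point lies beyond the right dashed line, and Il15, Il15ra, Il18rap and Il12rb2 have points beyond the left one.

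The rest of the pathway was described by 32 further genes in 4 lists. At 12 against 4 months 176 of 224 pairs of gene and class had enough counts, 7 were at least 1.5-fold higher and 0 lower, and at 20 months 4 were higher and 4 lower of 173. These are 3.98% and 4.62%, beside the 8.09% and 8.42% of all genes. All 7 at 12 months were ligands, among 19 pairs with enough counts for the 8 ligand genes. Il12b, a subunit gene of IL-12, was higher in dendritic-like cells, 196 to 437 CPM. It is a leading gene of mature dendritic-like cells, whose share was higher in that library (26.7% against 17.9% of dendritic-like cells). It was also past the fold in CD8 T-like (4.76 to 8.36 CPM), NK-like (5.13 to 8.66 CPM) and monocyte/macrophage-like cells (8.7 to 15.2 CPM). As a mean over libraries, mature dendritic-like cells held 1480 CPM of Il12b and the next class, C1q macrophage-like cells, 20.6 CPM. Il12a, also on the ligand list, was at 0.88 CPM in mature dendritic-like cells. It was highest in plasmacytoid dendritic-like cells, at 5.27 CPM, so no IL-12 output is read from Il12b. The part of mature dendritic RNA in the low Il12b levels of other classes was not tested. Il7 was past the fold in CD8 T-like (1.01 to 4.3 CPM), NK-like (1.96 to 4.03 CPM) and monocyte/macrophage-like cells (1.16 to 2.68 CPM), at low levels in each.

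Of 6 further genes, 5 receptor chains and a soluble inhibitor, with 31 pairs at 20 months, Il7r, the IL-7 receptor alpha chain of resting lymphocytes, was higher in NK-like cells (10.5 to 24.6 CPM, 2.35-fold), Ly49-bearing T-like cells (65.9 to 102 CPM) and monocyte/macrophage-like cells (12 to 19.9 CPM). In the last, 11 T markers, all above 0, summed to 784 and 1031 CPM at these ages, and resting CD8 T-like cells, at 135 and 194 CPM of Il7r, went from 3.4% to 14.4% of the cells. Their part in the Il7r of other classes was not tested. Il18bp, which binds and blocks IL-18, was lower in dendritic-like cells (66.7 to 41.9 CPM). Among 7 target and feedback genes, with 49 pairs, Myc was lower in CD8 T-like (61.2 to 38.3 CPM) and Ly49-bearing T-like cells (138 to 80.5 CPM), and Socs2, an inhibitor of cytokine signalling, was higher in the latter (15.1 to 23.2 CPM). Of 11 kinases, adaptors and STAT factors, with 76 pairs, Stat5a alone passed, lower in resting CD8 T-like cells (17.5 to 11.6 CPM).

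By class, the ligands and signalling genes had these places, as means over the libraries. Il12b was highest in mature dendritic-like cells at 1480.0 CPM, as were Stat4 (420.5 CPM), Jak2 (298 CPM) and Socs2 (743 CPM). Il18 was highest in the Tgm2-led cluster at 208 CPM, beside its high Il15. Il2 and Il21 were highest in the Ccl1-led T cluster at 118 and 15.8 CPM, Il7r in gamma-delta T17-like cells at 328 CPM, Bcl2 in resting CD8 T-like cells at 326 CPM and Cish, a target of STAT5, in regulatory T-like cells at 267 CPM. Il18bp was highest in C1q macrophage-like cells at 133 CPM and Myc in NK-like cells at 120.1 CPM. The first class overlapped the next over libraries for Il7r, Bcl2, Cish, Il18bp and Myc, and not for the other 7 genes named here.

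Genes with the most similar pattern to each gene over the 51 sums are given by Pearson r of log2 levels among 6995 genes, as a description. Il2ra was followed most closely by Mif4gd (0.89), Tnfrsf4 (0.86) and Ikzf4 (0.84), and Il2rb by Gm19585 (0.97), Gimap1os (0.96) and Sytl3 (0.96). For Il2rg the closest was Gm20489 (0.99), the annotated gene that overlaps it, then Vps28 (0.92) and Paip2 (0.90). Il15 was closest to Oasl1 (0.88), Pik3r6 (0.86) and Stom (0.86), and Il15ra to Il6 (0.85), Papss2 (0.82) and Syn3 (0.82). Il18r1 was closest to Thy1 (0.95), Cd247 (0.94) and Zap70 (0.93), and Il18rap to Cd96 (0.89), Lax1 (0.89) and Gm15421 (0.88). Il4ra was closest to Rapgef2 (0.79), Gapt (0.79) and Csf2rb (0.78), Il12rb2 to Mirt1 (0.78), Ppp3cc (0.76) and Clybl (0.76), and Il21r had no close match, with Zc3h12d (0.63), Hbp1 (0.58) and Foxp4 (0.57). Among the 10 genes themselves the highest r was that of Il2rb with Il2rg, 0.85, and the lowest that of Il4ra with Il18r1, -0.72.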

How the data were processed

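The authors deposited, for each of 3 libraries, a matrix of whole-number counts per gene and cell, not normalized. STAR 2.7.10a and GRCm38 are named in the submitters' processing notes. The counting program, annotation, cell calling, use of strand, and whether molecules or reads were counted are not given in the sources used here. Of the listed gene identifiers 98.1% are in GENCODE M21, which supplied positions.

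Cells were kept from 500 counts upward if mitochondrial genes gave no more than 15% of them. Doublets were scored per library by an own version of the Scrublet approach, and the top 6% (863, 879 and 881 cells) were removed. Counts per 10000 were log-transformed, reduced to 2000 variable genes and 30 components, and clustered by Leiden at resolution 1.0 (15 neighbours, seed 0) over all libraries without batch correction (scanpy 1.11.5, leidenalg 0.10.2, Python 3.11.15). The 10 genes and 32 pathway genes were left out of clustering. T-like cells were clustered again at 1.0, and monocyte/macrophage-like and NK-like cells at 0.5.

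Clusters were named from 29 marker lists. A name needed a scaled mean marker level of at least 0.4, at least 3 markers each in 10% of cells, and leading genes that did not favour another list. The 10 genes, the lists and the naming rules were chosen with earlier results of these data known, and the details of naming and the alternative with makeup held were chosen after seeing the data. Age comparisons used 7 broad classes.

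Counts were summed by class and library. A gene and class pair was counted when at least 100 counts were present over both libraries and the CPM ratio reached 1.5-fold. Named genes were all 10, every pathway gene past the fold, the class where a pathway gene was highest, and for each of the 10 genes the 3 with the highest correlation of log2(CPM + 10). Shares of cells used thinning to 3000 counts, which left out no cell, since the lowest total was 3555. The counting was tested on simulated Poisson counts for CD8 T-like and regulatory T-like cells at 20 against 4 months. Of genes changed 2-fold there, 99.5% and 97.3% passed the fold, as did 0.40% and 0.91% of unchanged ones. The simulation held no variation between mice, libraries or cells, so it cannot check the differences between ages. The deposited libraries held 110371225, 127850782 and 119873564 counts. The intervals rest on a gene's counts in a class and on the class totals. They treat each count as a separate molecule, which the sources used here do not settle. Alternatives covered doublets, resolution, separate clustering, depth, weighting, scaling, background and count minimum.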

Additional observations from a re-analysis of the deposited data

How the results depend on the processing

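Of the 7 broad classes, the one in which a gene was highest stayed the same for 10 of 10 genes with doublets kept, resolution 1.5, at least 5000 counts per cell, cells weighted equally and a minimum of 20 counts. It did so for 9 with libraries clustered separately, where Il18r1 was highest in CD8 T-like cells, and for 9 without the 10 highest cells, where Il4ra was highest in monocyte/macrophage-like cells. The order over the 17 finer classes was not recomputed. The number of pairs of gene and class past 1.5-fold, 5 at 12 months and 6 at 20 months, was within 1.5 times that value under every other setting except these. Without the 10 highest cells it was 10 at 20 months (3 higher, 7 lower), and 13 for the pathway genes in place of 8. With the lowest level of each library subtracted as background it was 20 of 59 pairs at 12 months (7 higher, 13 lower), 18 of 56 at 20 months (7 higher, 11 lower) and 47 of 141 for pathway genes (18 higher, 29 lower), since subtraction leaves small levels. A minimum of 20 counts gave 16 for pathway genes. With the sub-cluster makeup of 4 months held, an alternative chosen after seeing the data, 2 pairs at 12 months and 1 at 20 months remained past the fold. Il12rb2 in dendritic-like cells passed in 4 of 9 alternatives, Il15ra in regulatory T-like cells in 5 of 7, and the other 9 pairs in at least 6. In separate clustering no resting CD8 T-like cells were named. No paired analysis was possible because there was 1 library per age, and for the same reason no replicate could be left out. Depth limits the classes under 100 cells per library, such as gamma-delta T17-like cells.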

Other observations

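Within NK-like cells a small sub-cluster of 88, 34 and 20 cells, led by Cdk8 and CT010467.1 and with a median of 5253 counts per cell, held Il18rap at 253, 185 and 262 CPM, Il18r1 at 129, 115 and 222 CPM and Il12rb2 at 91.6, 111 and 93.3 CPM, each above every other NK sub-cluster in the same library. Its Il2rg, 372, 288 and 332 CPM, was the lowest of the NK sub-clusters in each library. Camk1d, Gphn, Lars2 and Mir6236 also led it, and 51 cells of dendritic-like type had the same leading genes, so its place as an NK state was not tested. The sub-cluster led by Gzmd and Gzmf, granzyme genes, had low IL-18 receptor, with Il18rap at 27, 34.1 and 34 CPM and Il18r1 at 22.5, 23.7 and 29.2 CPM, while its Il2rb, 995, 1092 and 819 CPM, was not low. The dividing sub-cluster, highest over other NK-like cells for Pclaf and Stmn1, held Il18rap at 60.5, 43.8 and 54.4 CPM and Il2rg at 468, 541 and 443 CPM.

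In the NK sub-cluster with high Cxcl10 and Ifit1, Il2ra was 30.04, 17.8 and 14 CPM, and its share of NK-like cells was 21.7%, 16.2% and 13.1%. In dividing CD8 T-like cells Il2ra was 11.1, 19.9 and 19.1 CPM, and these cells made up 11.2%, 20.4% and 24.3% of CD8 T-like cells. Over the whole classes Il2ra was 16.9, 18.6 and 15.2 CPM in NK-like and 20.4, 23.5 and 19.5 CPM in CD8 T-like cells. Classical monocyte-like cells, the class with the least Il2ra, held 11.7, 13.2 and 9.14 CPM. The values of dividing CD8 T-like cells and the older ones of the NK sub-cluster are near that level, and no change with age is read from them.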
